A study of Homo sapiens with 4 samples.

Results

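This account concerns 10 genes of the mannose 6-phosphate and insulin-like growth factor (IGF) systems, out of 78686 features counted by RNA sequencing in HEMK1 KO and WT cells. The genes are IGF2R, M6PR, GNPTAB, GNPTG, NAGPA, IGF2, IGF1R, INSR, IGFBP2 and IGFBP4. IGF2R was selected on its measured KO to WT fold change in these libraries, so its difference is described here without a test. The other genes were listed with it for a shared function. All 10 were found by symbol, and 5 of them (IGF2R, M6PR, GNPTAB, IGF1R and INSR) had enough counts for a test, among 10670 genes tested.

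HEK293 is a human cell line that was established from embryonic kidney. The KO group was 2 libraries of HEMK1 KO cells of the clone 1F8, grown from 1 sorted cell after transfection with Cas9 plasmids carrying 2 different guides, and the WT group was 2 libraries of unedited HEK293 cells. Both groups were grown in the same medium with serum and are called biological replicates in the labels. With 1 clone in the KO group, the loss of HEMK1 and traits particular to the clone cannot be told apart.

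The libraries held 2856784 and 3202039 counts in the KO group and 2476471 and 2671594 counts in the WT group. HEMK1, the edited gene, had 1 and 7 counts in the KO libraries and 6 and 9 counts in the WT libraries, too few to check the labels. Of 8 markers fixed for HEK293 cells, 6 were detected, with a summed level of 135.5 to 142.1 CPM (counts scaled for library size) in the KO libraries and 171.6 to 171.8 CPM in the WT libraries, while IRS4 and PAX2 had 0 counts in all 4. Of 7 fibroblast markers 5 were detected, at a summed 32.2 to 44.1 CPM in the KO and 27.0 to 29.5 CPM in the WT libraries, with LUM the highest and COL1A2 and DCN at 0. Blood markers summed to 3.15 and 9.06 CPM in the KO libraries and to 0 in the WT libraries. Endothelial markers reached at most 0.937 CPM in the KO and 1.21 CPM in the WT libraries. The part of these markers in the results on the 10 genes was not tested.

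Mannose 6-phosphate is the tag that sends newly made soluble enzymes to lysosomes. It is made in the Golgi by a phosphotransferase, whose catalytic subunits are encoded by GNPTAB and whose further subunit is encoded by GNPTG, and it is uncovered by the enzyme encoded by NAGPA. The tag is then bound by the cation-independent receptor, encoded by IGF2R, and the smaller cation-dependent receptor, encoded by M6PR. IGF2R also binds IGF2 at the cell surface and carries it to lysosomes for breakdown, whereas IGF1R and INSR are the receptor tyrosine kinases that signal for IGFs and insulin, and IGFBP2 and IGFBP4 bind IGFs outside the cell.

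The sequence just before the start of IGF2R is shown because IGF2R is the gene on which the results turn. The hexamer CACGTG is its own reverse complement, so a single search covers both strands, and it is the core of the element bound by TFEB and related regulators of lysosomal genes. In the 250 bases before the start of IGF2R in RefSeq (GRCh38.p14, chr6:159968832-159969081, plus strand), capitals mark the 3 copies found, which begin 132, 74 and 28 bases before the start.

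IGF2R: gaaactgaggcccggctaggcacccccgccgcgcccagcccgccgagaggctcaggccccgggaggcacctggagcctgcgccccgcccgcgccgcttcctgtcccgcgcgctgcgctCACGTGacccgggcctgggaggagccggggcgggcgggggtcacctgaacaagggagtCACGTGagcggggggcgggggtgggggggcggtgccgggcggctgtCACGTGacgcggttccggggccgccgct

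This window had a GC content of 79.2% and 33 CG dinucleotides, against medians of 58.0% and 11 over 35116 promoter windows of the same length. At least 1 CACGTG was present in 6.35% of those windows, and 3 or more in 28 of them (0.0797%). RefSeq promoters were found for 9 of the 10 genes, all but IGF2, and 4 of the 9 genes held the hexamer, against 7.73% of 27305 genes with a promoter. Beside IGF2R these were GNPTG, M6PR (at 1 of its 2 starts) and NAGPA. By the GENCODE 29 annotation, which differs from RefSeq here, the M6PR and NAGPA copies lie inside the gene. The GNPTG copy lies at the GENCODE 29 start of that gene. For comparison, 30 bases around each copy in these genes are given with the hexamer in capitals (chr16:1351901-1351930, plus strand, chr12:8949473-8949502, minus strand, and chr16:5033938-5033967, minus strand).
GNPTG: acttccggtccccgtggtCACGTGaccgtc
M6PR: agtttcccacgaCACGTGagtgtgaggggc
NAGPA: tgggacttgagtCACGTGaggcgagcccac
The copy nearest the start of IGF2R and the copy in GNPTG were also flanked by GT before and AC after the hexamer, a form present in 0.308% of all windows. GNPTAB, IGF1R, INSR, IGFBP2 and IGFBP4 had no CACGTG in these windows. Of the genes with a promoter in related gene lists, it was held by 9 of 31 for soluble lysosomal proteins that carry the tag, 2 of 31 for receptor sorting and 2 of 29 for signalling. It was held by 0 of 12 for IGF ligands and binding proteins, 2 of 3 for IGF2 mRNA binding and 0 of 5 for other partners of IGF2R. These matches describe letters only, and binding of any factor was not measured.

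IGF2R, the larger receptor, had the largest difference of the 10 genes. It is annotated on the plus strand of chromosome 6 (positions 159969099 to 160113507 of GRCh38, GENCODE 29) and was counted under ENSG00000197081.16. IGF2R had 31 and 23 counts in the KO libraries (10.8 and 7.41 CPM), against 416 and 1137 counts in the WT libraries (173 and 423 CPM). Both KO libraries were far below both WT libraries, but some IGF2R transcript was counted in each KO library. The means were 9.10 ± 2.39 CPM in KO and 298 ± 177 CPM in WT (SD, n = 2 each), a log2 fold change of −5.03 ± 0.50 (SE from edgeR). Among 8483 protein-coding genes tested, only BCHE and CLDN11, each with 0 counts in both KO libraries, had a lower log2 fold change. Among all 10670 genes tested, IGF2R ranked 11 from the lowest. This fold change was the ground for selecting IGF2R, so its low rank follows from the selection. In RNA from whole cultures, a lower share of cells with the transcript and less transcript per cell cannot be told apart.

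**Figure D1:**
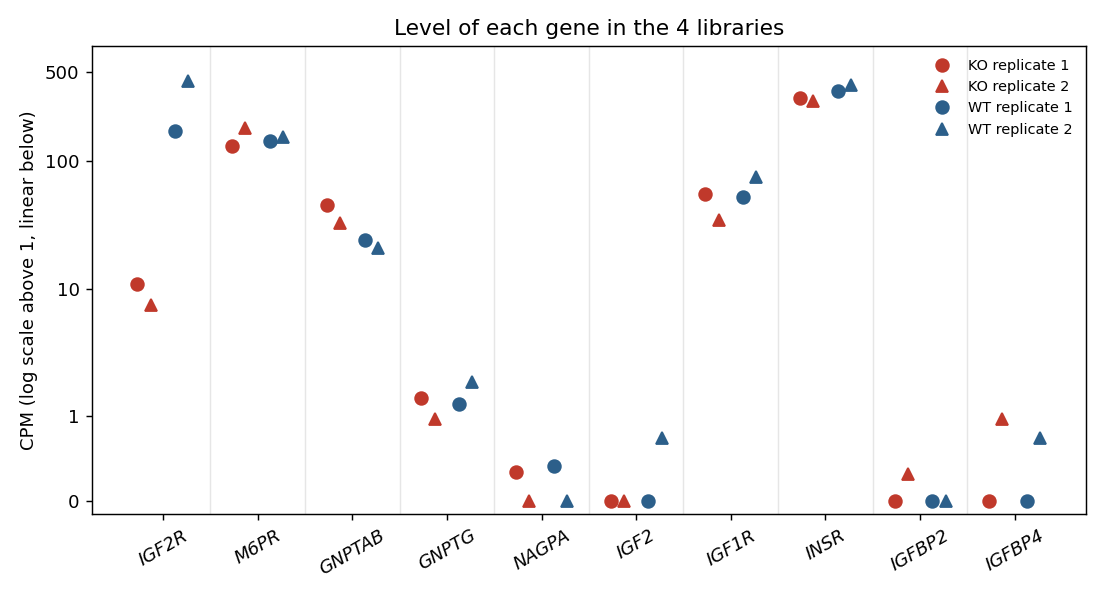
CPM of each of the 10 genes (y axis, logarithmic above 1 CPM and linear below) in the 2 KO libraries (red) and the 2 WT libraries (blue); circles are replicate 1 and triangles replicate 2. IGF2R lies at 10.8 and 7.41 CPM in KO and 173 and 423 CPM in WT, and 5 genes lie below 2 CPM in every library.

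The WT libraries themselves differed in IGF2R. Its level in WT replicate 2 was 2.45 times that in WT replicate 1, a log2 ratio of 1.29, whereas the median absolute log2 ratio between the WT libraries was 0.17 over the 3190 genes that averaged 50 CPM or more. Of the other genes in that set, 1 differed as much between the WT libraries, the pseudogene EEF1A1P9, and in the other direction. The KO libraries differed less in IGF2R, by a log2 ratio of −0.54 of replicate 2 to replicate 1. The size of the KO to WT difference therefore depended on the WT library, with a log2 fold change of −5.54 without WT replicate 1 and −4.28 without WT replicate 2. Set library against library, WT was between 16.0 and 57.0 times KO.

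M6PR, the smaller receptor, was not called. M6PR (chromosome 12, positions 8940363 to 8949955, minus strand) had 130.5 and 182 CPM in the KO libraries, against 143 and 154 CPM in the WT libraries. The groups overlapped, with the highest and the lowest value both in KO. The log2 fold change was 0.07 ± 0.17 (SE), with an edgeR adjusted p of 0.949, and it was −0.18 without KO replicate 2. About 29.3% of the merged exons of M6PR overlap PHC1 on the opposite strand, and whether counting used the strand is not given in the sources used here.

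Levels of different genes are compared per length, in TPM, from counts per kilobase of merged exons scaled to a fixed total in every library. On this scale IGF2R had 1.85 and 1.21 TPM in the KO libraries, against 27.0 and 69.4 TPM in the WT libraries. M6PR had 106 and 141 TPM in KO, against 106 and 119.6 TPM in WT. M6PR was thus the more abundant receptor transcript in all 4 libraries. IGF2R made up 1.72% and 0.853% of the receptor pair in the KO libraries, against 20.4% and 36.7% in the WT libraries. The TPM of the pair together was 108 and 142 in KO and 133 and 189 in WT, which overlapped.

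**Figure D2:**
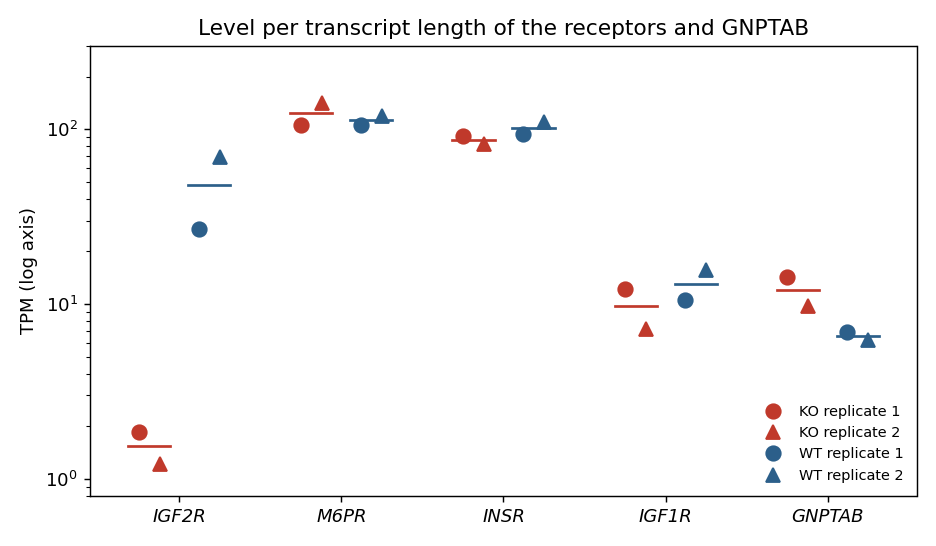
TPM (log axis) of the receptors and of GNPTAB in KO (red, left) and WT (blue, right) libraries, with circles for replicate 1, triangles for replicate 2 and lines at group means. IGF2R lies at 1.85 and 1.21 TPM in KO and at 27.0 and 69.4 TPM in WT, while M6PR lies between 106 and 141 TPM in all 4 libraries.

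In KO libraries M6PR was highest, followed by INSR (91.9 and 82.1 TPM), then GNPTAB and IGF1R with overlapping values, then IGF2R. GNPTG had 1.04 and 0.689 TPM in KO, from only 4 and 3 counts, so its place below IGF2R is uncertain. In WT libraries M6PR and INSR (94.5 and 110.0 TPM) overlapped at the top, IGF2R came next, then IGF1R (10.5 and 15.7 TPM), GNPTAB (6.90 and 6.25 TPM) and GNPTG (0.848 and 1.33 TPM). NAGPA, IGF2, IGFBP2 and IGFBP4 had at most 3 counts in any library and could not be ordered. Among them IGFBP4 had 0 and 1.29 TPM in KO, against 0 and 0.990 TPM in WT. Its value in KO replicate 2, from 3 counts, lay above that of IGF2R in that library with merged exons. With the longest transcript it lay below, at 0.958 against 1.15 TPM. With either length, GNPTAB lay above IGF1R in each KO library and M6PR above INSR in each WT library. Whether their values overlapped between libraries depended on the length used. With the longest transcript, GNPTAB (18.3 and 12.4 TPM) lay above IGF1R (10.5 and 6.15 TPM) in KO without overlap, and M6PR (109 and 126 TPM) lay above INSR (83.3 and 98.5 TPM) in WT without overlap.

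Of the tagging genes, GNPTAB had the larger values in the KO libraries. GNPTAB, which encodes the catalytic subunits of the phosphotransferase (chromosome 12, positions 101745497 to 101830938, minus strand), had 45.2 and 32.5 CPM in the KO libraries, against 24.1 and 20.8 CPM in the WT libraries. Both KO values were above both WT values, which was so, in 1 direction or the other, for 39.2% of all genes tested (21.2% with KO higher and 18% with KO lower). The means were 38.9 ± 8.99 CPM in KO and 22.5 ± 2.32 CPM in WT (SD, n = 2 each). The log2 fold change was 0.79 ± 0.24 (SE), which did not pass the test over all genes (edgeR adjusted p = 0.344). It passed without KO replicate 2, at 1.02 (edgeR adjusted p = 0.0141), and not without any other library (0.51 to 1.02 over all settings). That fit has 1 KO library, which is assumed to vary like the WT libraries.

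GNPTG and NAGPA were too scarce for a test. GNPTG, which encodes the subunit that helps the phosphotransferase act on many of its substrates, had 4 and 3 counts in the KO libraries and 3 and 5 counts in the WT libraries, a KO to WT ratio of 0.743 (95% exact counting interval 0.230 to 2.35). Parts of its exons (22.2% of merged length) overlap UNKL on the opposite strand. NAGPA, the uncovering enzyme, had 1 and 0 counts in KO and 1 and 0 counts in WT. A difference in either was not detectable at this depth. Intervals and floors cover counting error only.

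Both signalling receptors had lower means in KO, and neither was called. INSR, the insulin receptor (chromosome 19, positions 7112255 to 7294034, minus strand), had 313.5 and 293 CPM in the KO libraries, against 353 and 392.4 CPM in the WT libraries. The KO values were both below the WT values, as for 18% of all genes tested. The means were 303.5 ± 14.2 CPM in KO and 373 ± 27.6 CPM in WT (SD, n = 2 each). The log2 fold change of −0.30 ± 0.13 (SE) did not pass the test, at an edgeR adjusted p of 0.584. IGF1R, the type 1 IGF receptor (chromosome 15, positions 98648539 to 98964530, plus strand), had 55.7 and 34.5 CPM in KO, against 52.3 and 74.7 CPM in WT. Its groups overlapped, and the log2 fold change was −0.50 ± 0.26 (SE), at an edgeR adjusted p of 0.642. IGF1R passed the threshold without KO replicate 1, at −0.92 (edgeR adjusted p = 0.0497), again with 1 KO library assumed to vary like the WT libraries. Per length, INSR was 7.51 and 11.4 times IGF1R in KO and 9.01 and 7.01 times in WT libraries, which overlapped.

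**Figure D3:**
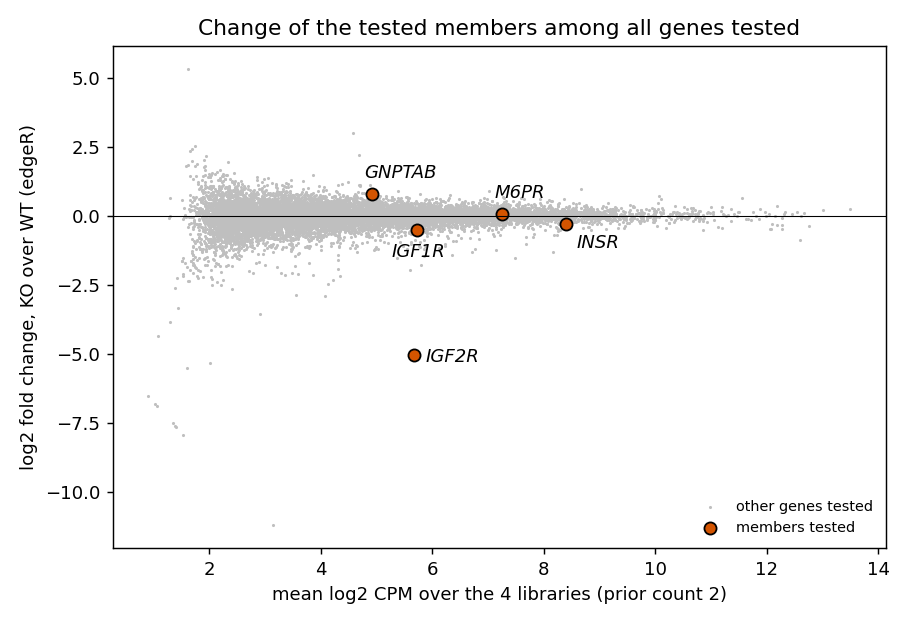
Log2 fold change of KO over WT from edgeR (y axis) against mean log2 CPM over the 4 libraries (x axis) for the 10670 genes tested (grey) and the 5 tested members (orange). IGF2R lies at −5.03, while M6PR, GNPTAB, IGF1R and INSR lie between −0.50 and 0.79.

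Of the 4 tested members other than IGF2R, 0 were called by edgeR, where 0.328% of all genes tested were called (0.281% as lower and 0.0469% as higher in KO). At an unadjusted p under 0.05 there were 2 of 4, GNPTAB and INSR, where 8.43% of all genes were. DESeq2 also called 0 of the 4. The median log2 fold change of all genes tested was 0.00919.

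The ligand and the binding proteins gave almost no counts. IGF2, the fetal growth factor that IGF2R removes, had 0 and 0 counts in the KO libraries, against 0 and 2 counts in the WT libraries, and a count of 0 among 6058823 in KO allows up to 0.495 CPM. IGF2 shares exons with a second annotated gene model of the same name (73.7% of its merged exons) and with the readthrough gene INS-IGF2 (20.9%). Both were listed at 0 in all 4 libraries. How reads in shared exons were assigned is not given here. IGFBP2 had 0 and 1 counts in KO and 0 and 0 in WT, and IGFBP4 had 0 and 3 counts in KO and 0 and 2 in WT. These levels are at or below the limit of 3 counts per library, so no fold is given.

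The genes without a test had transcripts richer in GC. The longest transcripts of the 5 tested members had GC contents from 43.2% (GNPTAB) to 51.7% (IGF1R), and those of the 5 untested members from 55.3% (GNPTG) to 62.5% (IGFBP4). Over all protein-coding genes, 61.3% of those with 40 to 45% GC passed the count filter, against 23.1% at 55 to 60% and 8.19% at 60 to 65%. CTSD, a lysosomal protease with 64.0% GC, had 7 and 4 counts in KO and 5 and 2 in WT libraries, whereas LYSET, with 49.4% GC, had 0 counts in all 4. The part of GC content in the low counts of IGF2, IGFBP2, IGFBP4, GNPTG and NAGPA was not tested. The median log2 fold change also varied with GC, at −0.29 for genes of 60 to 65% and between −0.04 and 0.04 in the classes that held the tested members.

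**Figure D4:**
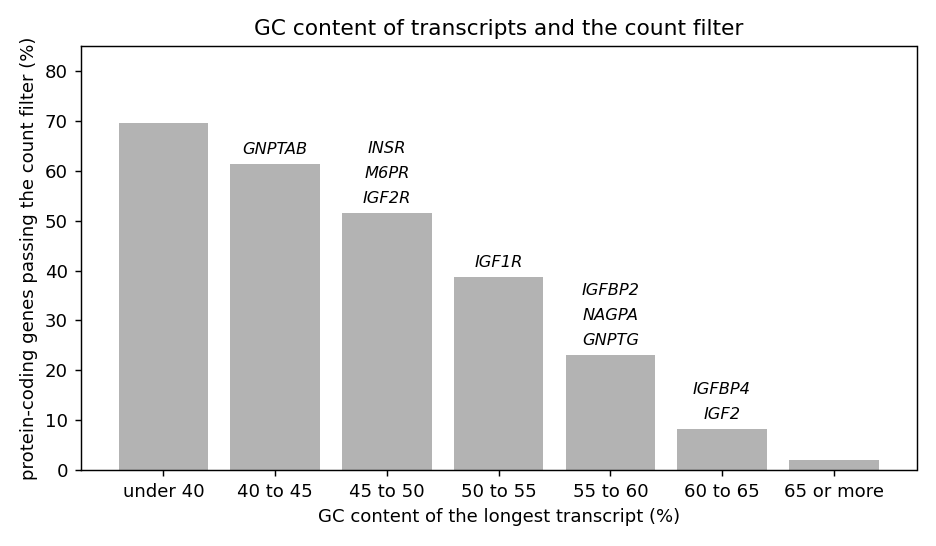
Share of protein-coding genes that passed the count filter (bars, %) by GC content of the longest GENCODE 29 transcript, with the 10 genes named above the class they fall in. The share is 61.3% at 40 to 45% GC and 8.19% at 60 to 65%, and the 5 untested genes fall in the classes from 55 to 65%.

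Among the genes around IGF2R, no tested neighbour was called. Of 42 annotated genes that start within 1 Mb of IGF2R, 6 were tested, all of them at lower coordinates than IGF2R, and 0 were called by edgeR or by DESeq2 (1 at an unadjusted p under 0.05), with a median log2 fold change of −0.08. Over all genes tested, edgeR called 0.328%, and 8.43% had an unadjusted p under 0.05. ACAT2, an acetyl-CoA acetyltransferase whose start is 208.8 kb away, had 239.8 and 249.9 CPM in KO, against 234 and 233 CPM in WT (log2 fold change 0.07 ± 0.13, SE). TCP1, a chaperonin subunit that starts 179.3 kb away, had 131.5 and 140.4 CPM in KO, against 143 and 141 CPM in WT (−0.06 ± 0.14). RSPH3, a protein of cilia 968.9 kb away, had the smallest p, at 11.8 and 8.70 CPM in KO, against 5.40 and 5.20 CPM in WT (0.94 ± 0.39, SE; edgeR adjusted p = 0.524). AIRN, a non-coding RNA read from the opposite strand inside IGF2R and known for silencing the paternal Igf2r copy in mice, had 0 counts in all 4 libraries. Downstream of IGF2R none of the 42 had enough counts for a test. Neighbours were sought only among the 57288 of 78686 features with an entry in GENCODE 29, so other features nearby were not covered. Around IGF2, 4 of 87 annotated genes were tested and 0 were called by edgeR or by DESeq2 (0 at an unadjusted p under 0.05), among them KCNQ1OT1, the imprinted RNA of the neighbouring domain, with 51 and 52 counts in KO, against 51 and 50 in WT (log2 fold change −0.20 ± 0.25, SE).

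**Figure D5:**
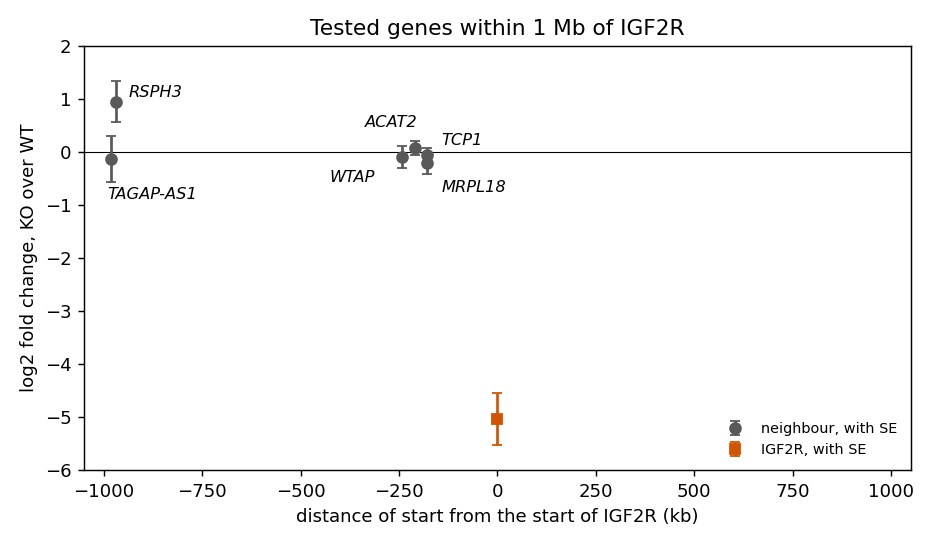
Change in KO relative to WT (log2 fold change, bars are SE, y axis) against the distance of each gene's start from that of IGF2R (x axis, kb) for the 6 tested neighbours within 1 Mb (grey circles) and IGF2R (orange square). The neighbours lie between −0.22 and 0.94, and IGF2R at −5.03.

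No gene for the proteins that move the receptors was called. Of 34 genes for clathrin coats, the AP-1 and AP-2 adaptors, GGA proteins, retromer and related factors, 28 were tested. The calls by edgeR or by DESeq2 were 0, where edgeR called 0.328% of all genes tested. At that share, 0 calls in 28 genes say little about the list. An unadjusted edgeR p under 0.05 was seen for 4, and for 8.43% of all genes. The median log2 fold change was −0.00158. Of the retromer subunits, which return the receptors from endosomes, VPS26A had 759.6 and 739 CPM in KO, against 780.3 and 773 CPM in WT. Its paralog VPS26B was scarce, with 3.83 and 5.80 CPM in KO, against 2.91 and 5.20 CPM in WT. The smallest p belonged to PLIN3, a lipid droplet protein also described as a binder of the receptors' tails, with 6.26 and 4.51 CPM in KO, against 15.4 and 7.80 CPM in WT (log2 fold change −1.09 ± 0.43, SE; edgeR adjusted p = 0.509). LYSET, which is needed to keep the phosphotransferase in the Golgi, had 0 counts in all 4 libraries.

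No gene for the cargo of the receptors was called either. Only RNA was measured, so the protein level, tagging and sorting of the cargo were not tested. Of 44 genes for soluble lysosomal proteins that carry the tag, 31 were tested and 0 were called by edgeR or by DESeq2. An unadjusted edgeR p under 0.05 was seen for 1. Over all genes tested, edgeR called 0.328%, and 8.43% had an unadjusted p under 0.05. A log2 fold change above 0 was seen for 18 of the 31, and the median was 0.02. The 44 genes summed to 1175 and 1283 CPM in KO, against 1208 and 1144 CPM in WT, which overlapped. LIPA, the lysosomal acid lipase and the most abundant of them by CPM, had the smallest p, with 286 and 293 CPM in KO and 239.6 and 211 CPM in WT (log2 fold change 0.36 ± 0.14, SE; edgeR adjusted p = 0.471). PSAP, the precursor of the saposins, had 145 and 178 CPM in KO, against 184 and 161 CPM in WT.

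Other ligands, binding proteins and their proteases were mostly at the limit of detection. Of 16 listed, 5 were tested and 0 were called by edgeR or by DESeq2 (1 at an unadjusted p under 0.05), with a median log2 fold change of 0.14. Over all genes tested, edgeR called 0.328%, and 8.43% had an unadjusted p under 0.05. IGFBP7, a binding protein of low IGF affinity, had 44.2 and 44.1 CPM in KO, against 45.3 and 44.2 CPM in WT, and was the most abundant of the list. STC1, a stanniocalcin, the family that restrains the protease PAPPA, had 8.35 and 11.3 CPM in KO and 5.81 and 3.34 CPM in WT (1.11 ± 0.43, SE; edgeR adjusted p = 0.486). IGF1 had 0 and 0 counts in KO, against 0 and 9 counts in WT, so its WT counts came from 1 library.

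Downstream of the receptors, 23 of 34 genes were tested, 0 were called by edgeR or by DESeq2 (1 at an unadjusted p under 0.05) and the median log2 fold change was −0.02. Over all genes tested, edgeR called 0.328%, and 8.43% had an unadjusted p under 0.05. TSC1, which restrains mTOR signalling, had the smallest p, with 83.2 and 93.7 CPM in KO, against 110.5 and 117 CPM in WT (−0.37 ± 0.16, SE; edgeR adjusted p = 0.557). IRS4, an adaptor of these receptors, had 0 counts in all 4 libraries. RICTOR, a subunit of mTOR complex 2 and the most abundant of the list, had 245 and 229.6 CPM in KO, against 167 and 289.5 CPM in WT. Like IGF2R, RICTOR was higher in WT replicate 2 than in WT replicate 1.

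The remaining lists were small, where edgeR called 0.328% of all genes tested and 8.43% had an unadjusted p under 0.05. Of 5 RNA-binding proteins tied to IGF2 mRNA, 4 were tested and 0 were called by edgeR or by DESeq2 (0 at an unadjusted p under 0.05), with a median of −0.22. The smallest p was that of IGF2BP1, with 63.0 and 69.9 CPM in KO, against 80.2 and 82.1 CPM in WT (−0.29 ± 0.17, SE; edgeR adjusted p = 0.686). Of 7 other proteins that bind IGF2R or carry the tag outside lysosomes, 2 were tested and 0 were called by edgeR or by DESeq2 (0 at an unadjusted p under 0.05). The smaller p was that of GRN, the progranulin gene, with 10.8 and 10.6 CPM in KO, against 16.2 and 13.4 CPM in WT (−0.46 ± 0.30, SE; edgeR adjusted p = 0.718).

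The genes whose levels followed IGF2R most closely over the 4 libraries were all scarcer. Likeness was the Euclidean distance between log2 CPM profiles, each centred on its own mean over the 4 libraries, taken over all genes tested other than pseudogenes. The nearest was AC010761.2, annotated as an antisense RNA (distance 1.18), with 2 and 0 counts in KO, against 34 and 44 in WT. BCHE, which encodes butyrylcholinesterase (1.40), had 0 and 0 counts in KO, against 20 and 25 in WT. LINC00115, a non-coding RNA (1.71), had 10 and 2 counts in KO, against 40 and 86 in WT. CLDN11, a tight junction claudin (1.95), had 0 and 0 counts in KO, against 10 and 16 in WT. AC010595.1, another non-coding RNA (2.31), had 2 and 0 counts in KO, against 10 and 18 in WT. The choice by likeness to IGF2R fixes that these 5 genes were lower in KO. None of the 5 reached the minimum count in both KO libraries, so all 5 passed the count filter through the WT libraries. In CPM, all 5 were higher in WT replicate 2 than in WT replicate 1, by 1.12 to 1.92 times, against 2.45 times for IGF2R. The choice by likeness also favours this, because the profiles include both WT libraries.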

How the data were processed

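Polyadenylated RNA was sequenced in 2 HEMK1 KO and 2 WT libraries. Per the labels' protocols, a kit for low input was used, starting with 100 ng of RNA. Per the submitters' processing notes, the tools were STAR, HTSeq and DESeq2 after FastQC and Trimmomatic, on hg38. The annotation, tool versions and strand setting were not stated. The deposited counts are whole numbers per gene with no normalization. The authors' deposited comparison table holds, per the file headers, a base mean (a signal), a log2 fold change with its standard error, a Wald score and p-values. Its log2 fold changes lay within 0.00629 of those computed here for the tested members.

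Counts were filtered (filterByExpr, minimum count 10), TMM-scaled and fitted by robust quasi-likelihood on genotype (edgeR 4.0.16, R 4.3.3). Benjamini-Hochberg adjustment ran over all genes tested, with calls at an adjusted p under 0.05. The SE is the size of the log2 fold change divided by the root of the F statistic. CPM used TMM-scaled totals of tested genes, except marker sums, which used all counts. TPM used GENCODE 29 exon lengths. Replicates differed by more than sampling noise (chi-square per degree of freedom 5.38 in KO and 5.01 in WT). The p-values reflect only how far these libraries spread, and an exact permutation test of 2 against 2 cannot go below 0.333. The fit was tested on simulated data.

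The members, lists and rules were chosen with earlier results of these data known. The rule named the 10 members, genes overlapping them, the gene with the smallest p in each list or neighbourhood without calls, and the 5 nearest IGF2R in profile. ACAT2, TCP1, KCNQ1OT1, VPS26A, VPS26B, PSAP, LYSET, IRS4, RICTOR, IGFBP7, IGF1, EEF1A1P9 and CTSD were named after their values were seen. Alternatives were DESeq2 1.42.0, its type of size factors, no filter, a replicate block, each library left out and another transcript length.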

Additional observations from a re-analysis of the deposited data

How the results depend on the processing

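The log2 fold change of IGF2R lay between −5.54 and −4.28 over all 9 fits. Its direction could not change, because both KO libraries lay far below both WT libraries. The other tested members stayed uncalled under DESeq2, DESeq2-type size factors, no filter and the replicate block; leaving out 1 library gave 0 to 1 called members, the 1 being IGF1R without KO replicate 1 and GNPTAB without KO replicate 2. With 1 library left out, the lone library of a group is assumed to vary like the other group. M6PR ranged from −0.18, without KO replicate 2, to 0.26, without KO replicate 1; the cause was not tested. In each of the 6 other lists 0 genes were called under every one of these settings. Counts over all genes, 30 lower and 5 higher in KO, became 125 and 31 with no filter, where more genes were tested, and ranged from 3 to 164 lower and 1 to 25 higher with 1 library left out (lowest without WT replicate 1 for lower and without WT replicate 2 for higher genes, highest of both without KO replicate 2). With the replicate block they became 111 and 29. The labels give the same replicate numbers to both groups but say nothing of pairing. Across all genes tested, the differences between replicates 1 and 2 in KO and WT did not go together (r = −0.04). A single correlation over all genes cannot show whether some of them shared a batch, so pairing is not known. The length of the longest transcript in place of merged exons changed the ratios of IGF2R to M6PR and INSR to IGF1R by less than the SD in each group, but raised GNPTAB over IGF2R to 10.6 in KO, against 7.85 with merged exons, and changed which neighbours overlapped in the order of TPM. Depth limits GNPTG, NAGPA, IGF2, IGFBP2 and IGFBP4, which had 0 to 5 counts per library.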
